A study of Mus musculus with 16 samples.

Results

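Gastrocnemius muscle of HSALR mice treated with AICAR was compared with gastrocnemius muscle of untreated normal mice, to see which transcripts were back at the normal level, which were still away from it and which were newly away from it. The comparison took in 8 of the 16 mice sequenced, the 5 HSALR mice that received AICAR and the 3 FVB/N mice that received vehicle, chosen by their labelled genotype and treatment. HSALR mice of line LR20b carry, in the homozygous state, a human skeletal actin (HSA) transgene with a long CTG repeat, which is expressed in skeletal muscle and serves as a model of myotonic dystrophy type 1. The controls were mice of the FVB/N background strain. AICAR, an activator of AMP-activated protein kinase (AMPK), was given at 500 mg/kg for 7 days, and all mice were 3 months of age. The other 8 mice, 5 HSALR mice on vehicle and 3 FVB/N mice on AICAR, were used to show where each gene stood without treatment or without the transgene. The transgene itself was not among the mouse genes counted, so the genotype could not be checked in these data.

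In myotonic dystrophy type 1, expanded CUG repeats in RNA bind splicing factors of the muscleblind family and keep them from their targets. Muscle then shows myotonia, a slow relaxation that is linked to loss of the chloride channel ClC-1, and the fibres, their endplates and their signalling change. AMPK senses a fall in cellular energy, and in skeletal muscle its activation promotes glucose uptake, fat oxidation and the formation of mitochondria.

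Each mouse gave a separate library with 64890014 to 81987726 counted reads, and the ranges of the treated HSALR mice (67233541 to 81987726) and of the control mice (69752809 to 78780617) overlapped. Levels are given as CPM, the counts of a gene relative to all counts of its library after TMM scaling, and differences on the log2 scale as fitted by edgeR. Values of single mice are given in the order S445, S446 and S450 for the controls on vehicle and S454, S455, S460, S462 and S463 for treated HSALR mice. Summed levels of 8 muscle fibre markers, among them Acta1, Ckm and Myh4, were 126000 to 144000 CPM in treated HSALR mice and 124000 to 160000 CPM in control mice. Some libraries stood apart. Control mouse S450 had 141 CPM of 9 summed epidermal markers, against 2.26 and 3.23 CPM in the other control mice and 2.47 to 3.10 CPM in treated HSALR mice, and it also had the highest level of the slow myosin gene Myh7. Epidermal markers were also high in 4 of the 5 vehicle HSALR mice, S452, S453, S458 and S459, at 29.2 to 298 CPM, and in control mouse S448 on AICAR, at 165 CPM. These libraries entered the fit and the sorting of genes, and without any 1 of S448, S452, S453, S458 and S459, 468 to 557 genes were back near normal against the 589 reported below. Treated HSALR mouse S460 stood apart in several genes named below.

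Treated HSALR muscle differed from normal muscle in many genes. By the quasi-likelihood test of edgeR with Benjamini-Hochberg adjusted p-values under 0.05, 5759 of 15487 genes differed from control mice (37.2% of genes tested), 3221 of them higher (20.8%) and 2538 lower (16.4%). The difference was 2-fold or more for 1054 genes, 595 of them higher. Higher genes made up 55.9% of the calls, but 43.5% of 5532 calls when libraries were scaled by their total counts alone and 47.1% of 5819 calls with upper-quartile scaling, so the balance of directions depended on the scaling. The 2 groups did not overlap for 5921 genes (38.2% of those tested), and the median standard error of the log2 difference was 0.12.

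Distance from normal muscle was also taken for each mouse, as the root mean square difference from the control mean over all genes tested, on the scale of log2(CPM + 0.5). The treated HSALR mice lay at 0.483, 0.460, 0.448, 0.433 and 0.465, and the HSALR mice on vehicle at 0.417, 0.426, 0.472, 0.423 and 0.431. The control mice, each placed against the mean of the others, lay at 0.221, 0.262 and 0.349. Every HSALR mouse, treated or not, was farther away than every control mouse. The mean distance of treated HSALR mice was 0.024 greater than that of HSALR mice on vehicle (0.458 ± 0.019 against 0.434 ± 0.022, SD, n = 5 each; two-sided exact permutation test, p = 0.11, smallest possible p 0.0079). The difference passed the same test with a pseudocount of 5 (0.025, exact permutation p = 0.016), over genes of at least 5 CPM (0.038, exact permutation p = 0.0079) and as a median absolute difference (0.026, exact permutation p = 0.032). It passed as well without vehicle HSALR mouse S453 (0.033, exact permutation p = 0.016). Without the control mouse S450 it was 0.002 (exact permutation p = 0.94), whereas without S445 or S446 it was 0.039 (exact permutation p = 0.016) or 0.030 (exact permutation p = 0.040).

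**Figure D1:**
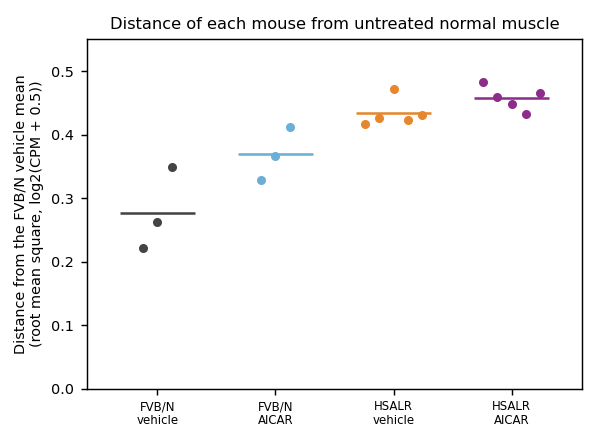
Distance of each mouse (points) from the mean of control mice on vehicle, as the root mean square difference on the scale of log2(CPM + 0.5) over 15487 genes, with group means as lines. The 5 treated HSALR mice lie between 0.433 and 0.483 and the 5 HSALR mice on vehicle between 0.417 and 0.472, all above the 3 control mice on vehicle.

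Genes were then sorted by 3 contrasts of the same fit, namely HSALR on vehicle against control on vehicle, treated HSALR against control on vehicle, and treated against vehicle HSALR. These contrasts share mice, so the counts that follow describe the sorting and are not independent results. A gene was called back near normal when vehicle HSALR muscle differed from control and AICAR moved it in the opposite direction, both by the test. It also had to show no difference from control by the test after AICAR, with the 95% interval of the remaining difference within 1.5-fold. Of the 4169 genes that differed between vehicle HSALR and control muscle, 589 were back near normal (3.8% of genes tested), 2721 were still away on the same side (17.6%) and 60 had passed to the other side (0.387%). The remaining 799 could not be placed. For 450 of these the 95% interval of the remaining difference also lay within 1.5-fold. They were not counted as back because treated and vehicle HSALR mice did not differ by the test. A further 1677 genes (10.8% of those tested) were newly away, which means that vehicle HSALR muscle did not differ from control by the test while treated HSALR muscle differed from both. Another 1301 genes that differed in treated HSALR muscle only could not be placed, since treated and vehicle HSALR mice did not differ by the test.

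Large differences of vehicle HSALR muscle were seldom undone. Of the 670 genes that were 2-fold or more away in vehicle HSALR muscle, 490 were still away, 9 were back near normal, 3 had passed to the other side and 168 could not be placed. Among the 589 genes back near normal, 277 had been higher and 312 lower in vehicle HSALR muscle, with a median size of the vehicle difference of 0.37 on the log2 scale. Genes still away had a median size of 0.46 on vehicle and 0.48 after AICAR. For 2106 of them, AICAR made no difference that passed the test in HSALR mice, 258 moved toward normal and 357 moved further from it. With any single control mouse left out, 382 to 487 genes were back near normal and 17 to 27 had passed to the other side.

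**Figure D2:**
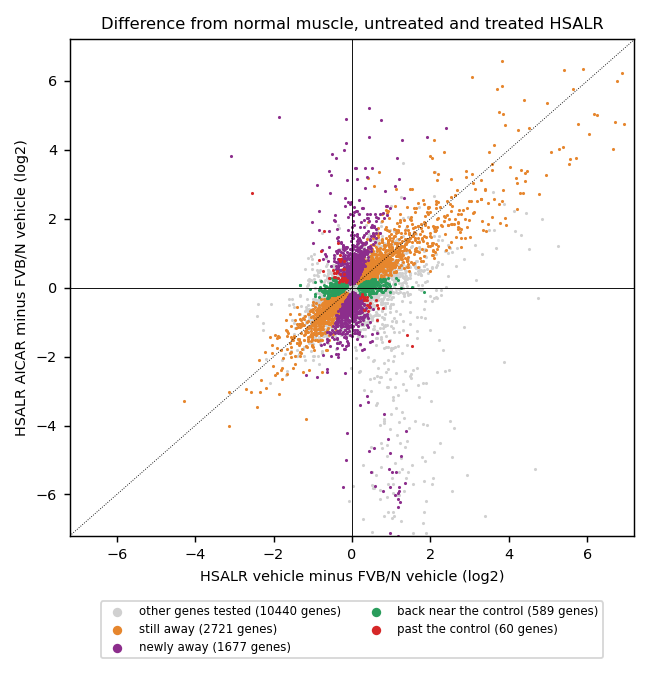
Log2 difference from control mice on vehicle for each of 15487 genes, in HSALR mice on vehicle (horizontal) and in treated HSALR mice (vertical), coloured by class. Genes still away lie along the dotted line of equal difference, genes back near normal along the horizontal axis and newly away genes along the vertical axis, and 29 genes beyond 7.2 on either axis are not drawn.

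Ion channels and calcium handling genes of the muscle membrane were among those still away. Kcnab1 (chr3:64949212-65378225, mm10), a beta subunit of voltage-gated potassium channels, had 76.4, 82.1 and 68.0 CPM in control mice and 11.0, 10.5, 9.03, 9.67 and 9.10 CPM in treated HSALR mice. The treated mice lay far below every control mouse and within the range of HSALR mice on vehicle, 7.59 to 16.0 CPM. The log2 difference, treated HSALR minus control, was -2.94 (SE 0.18, edgeR adjusted p = 2.9e-08). Cacna2d4, which encodes an alpha2delta subunit of calcium channels, had 1.17, 1.27 and 1.28 CPM in control mice and 15.5, 12.2, 8.89, 10.8 and 13.5 CPM in treated HSALR mice, with no overlap (log2 difference 3.30, SE 0.21, edgeR adjusted p = 1.6e-07). Scn4a, the sodium channel of the fibre membrane, was still lower (log2 difference -0.52, SE 0.11, edgeR adjusted p = 0.0014).

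The muscle chloride channel gene Clcn1 (chr6:42284851-42315764) was still away but nearer. Control mice had 193, 171 and 159 CPM, vehicle HSALR mice 79.7, 80.4, 85.8, 79.6 and 108 CPM, and treated HSALR mice 105, 109, 106, 112 and 100.5 CPM. All treated mice lay below all control mice, and 4 of the 5 vehicle HSALR mice lay below all treated ones. The log2 difference from control was -1.01 on vehicle and -0.71 after AICAR (SE 0.11, edgeR adjusted p = 0.00016), and the change between both HSALR groups was 0.30 (edgeR adjusted p = 0.032). Of the 26 genes of membrane excitability, 8 were higher and 7 lower in treated HSALR muscle, with 8 still away, 2 back, 1 past normal and 4 newly away, and the median log2 difference was 0.07. With any single control mouse left out none was past normal, and 1 was back, or 0 without S445. Over all genes tested these shares were 20.8%, 16.4%, 17.6%, 3.8%, 0.387% and 10.8%, and the median was -0.02.

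Several genes of the endplate and of the response to denervation were still away, while their lists had members on both sides. Chrna1 (chr2:73563281-73580338), the alpha subunit of the acetylcholine receptor, had 28.8, 23.5 and 33.4 CPM in control mice and 96.4, 93.3, 99.7, 71.5 and 67.8 CPM in treated HSALR mice. Every treated mouse had more than any control mouse, at a log2 difference of 1.59 (SE 0.16, edgeR adjusted p = 6.3e-06) against 1.24 on vehicle. Musk, the receptor kinase that organises the endplate, was higher by 1.66 (SE 0.25, edgeR adjusted p = 0.0002), with 20.3, 20.4 and 21.1 CPM in control mice against 85.3, 62.1, 61.8, 56.8 and 59.3 CPM. Runx1, a transcription factor known to be induced when muscle loses its nerve, was higher by 2.37 (SE 0.27, edgeR adjusted p = 2.3e-05) and had been higher by 2.54 on vehicle. In control mice, AICAR also came with more Musk (log2 difference 1.02) and Runx1 (1.68), whereas for Chrna1 the 3 control mice on AICAR had 31.4 to 32.9 CPM. Of 21 endplate genes 6 were higher and 6 lower, and of 24 genes of the denervation response 8 were higher and 7 lower, beside 20.8% higher and 16.4% lower over all genes tested. Without S446, 6 genes of the denervation response were higher and 3 lower, without S454 6 were higher and 4 lower, and without S463 8 were higher and 4 lower.

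A few structural genes and Igfbp5 were still away by a large amount. Actc1, the cardiac actin of developing muscle, had 140, 159 and 34.1 CPM in control mice, the last being S450, and 5.94, 6.35, 7.75, 8.07 and 6.52 CPM in treated HSALR mice, and the groups did not overlap (log2 difference -4.00, SE 0.32, edgeR adjusted p = 6.5e-07). It lay further from normal than on vehicle, where the log2 difference was -3.15. Igfbp5, a binding protein for insulin-like growth factors, also moved further, from -1.45 on vehicle to -2.21 after AICAR (SE 0.16, edgeR adjusted p = 1.5e-07), with 1186, 1058 and 1259 CPM in control mice and 206 to 283 CPM in treated HSALR mice. Myh1, the myosin heavy chain of fast IIX fibres, had 5408, 4230 and 3513 CPM in control mice and 14300, 14700, 19360, 14820 and 15860 CPM in treated HSALR mice, so that every treated mouse was above every control mouse (log2 difference 1.85, SE 0.18, edgeR adjusted p = 5.9e-06).

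Cacna1i, a low-voltage-activated calcium channel of the T type, was barely expressed in control mice, at 0.370, 0.497 and 0.177 CPM, and reached 27.6, 15.6, 22.7, 27.7 and 26.9 CPM in treated HSALR mice. It had been 1.75 to 4.78 CPM in vehicle HSALR mice and 0.811 to 2.96 CPM in control mice on AICAR, so only treated HSALR mice exceeded 5 CPM. The log2 difference of 6.10 (SE 0.49, edgeR adjusted p = 9.2e-07) was made up of 3.06 on vehicle and a further 3.03 between the HSALR groups (edgeR adjusted p = 2.1e-05). The other genes with the largest increases, among those without overlap and with enough counts, were Clca4a (6.21), Krt8 (6.00), Catsperd (5.76) and Chrna9 (5.37), all still away and all low in control mice, where none exceeded 0.598 CPM. Krt8, a keratin of simple epithelia, was at 4.29, 4.13, 39.0, 3.35 and 2.69 CPM in treated HSALR mice, and mouse S460 alone had the high value. Without S460 the log2 difference of Krt8 fell to 4.44, under those of Clca4a (5.88), Catsperd (5.61) and Chrna9 (5.58) without this mouse. Single control mice also moved these values, Clca4a to 7.56 without S445 and Chrna9 to 6.01 without S450, and limma with voom did not call Krt8 (5.18, adjusted p = 0.054). On the lower side, Kcnf1, a silent subunit of potassium channels, fell from 6.22, 5.04 and 11.8 CPM in control mice to 0.357, 0.297, 0.982, 0.781 and 0.291 CPM, a log2 difference of -3.82 (SE 0.40, edgeR adjusted p = 4.7e-06), and was placed as newly away without S450. Pla2g5, a secreted phospholipase A2, and the nuclear receptor Nr4a2 were also still lower, at -3.02 and -3.47, the latter with 23.9 CPM in S446 and 2.53 and 2.62 CPM in the other control mice. Without S446 the log2 difference of Nr4a2 was -1.55 and was not called (edgeR adjusted p = 0.058).

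Many genes for protein synthesis and breakdown were still away. Of 79 cytosolic ribosomal protein genes, 57 were higher in treated HSALR muscle and none lower (edgeR, and 0 lower at an unadjusted p under 0.05), 53 of them already higher on vehicle, and the median log2 difference was 0.27 after AICAR against 0.30 on vehicle. Each treated mouse had a median of 0.21 to 0.32 over the list, above the -0.02 to 0.02 of control mice. Rpl10, for example, had 79.4, 80.9 and 88.5 CPM in control mice and 136, 130, 118, 119 and 123 CPM in treated HSALR mice (log2 difference 0.59, SE 0.07, edgeR adjusted p = 3.0e-05). Of 33 proteasome subunit genes, 26 were higher and 1 was lower, 20 of them still away, and Psmd8, a subunit of the regulatory particle, had a log2 difference of 0.61 (SE 0.07, edgeR adjusted p = 1.4e-05). Of 76 mitochondrial ribosomal protein genes, 61 were higher and 1 lower, with 37 still away and 18 newly away, Mrps12 and Mrps27 among the former at 0.66 and 0.63. With scaling by total counts alone the cytosolic ribosomal genes still had 38 higher and none lower, and the mitochondrial ones 45 higher and 1 lower, with 8 newly away, while 36 cytosolic, 26 mitochondrial ribosomal and 16 proteasome genes were then still away. Over all genes tested, 20.8% were higher and 17.6% still away. Reads of ribosomal protein genes can also come from near-identical processed copies, since a single location was kept for reads that mapped equally well to several.

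Endothelial genes were part of what remained low. Of 6 endothelial markers 4 were still lower, beside 16.4% lower and 17.6% still away over all genes tested. Among them were Cdh5, the cadherin of endothelial junctions (log2 difference -0.44, SE 0.08, edgeR adjusted p = 0.00074), and Kdr, a receptor for vascular endothelial growth factor (-0.40, SE 0.13, edgeR adjusted p = 0.025). The call of Kdr was lost without S445 (-0.30, edgeR adjusted p = 0.14), S446 or S455, which left 3 of the markers lower. Pecam1 and Emcn were back, with Pecam1 at 78.9, 81.3 and 74.1 CPM in control mice, 49.8 to 62.5 CPM in vehicle HSALR mice and 74.8, 73.4, 64.2, 67.2 and 70.5 CPM in treated ones. The 6 markers summed to 235 to 255 CPM in treated HSALR mice and 297 to 337 CPM in control mice, without overlap. Erythroid markers, 5 in number, summed to 475 to 1040 CPM against 1220 to 3120 CPM in control mice, though none of them passed the test. Of 6 Schwann cell markers 3 were lower (16.4% over all genes tested), at most 1 without any 1 of S445, S446, S454, S460 and S462, and the sum was 110 to 186 CPM against 161 to 263 CPM, while 5 satellite cell markers summed to 38.5 to 42.7 CPM against 30.0 to 37.2 CPM. In whole muscle, fewer cells of a type and less RNA per cell cannot be told apart.

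Another set of genes stayed away from normal but moved back by part of the way. Camk1d, a calcium/calmodulin-dependent protein kinase, had 8.27, 8.52 and 6.54 CPM in control mice, 39.1 to 50.4 CPM in vehicle HSALR mice and 17.6, 16.2, 28.2, 17.4 and 17.2 CPM in treated HSALR mice. The treated mice lay between both other groups and overlapped neither, and the log2 difference from control went from 2.51 to 1.31 (SE 0.16, edgeR adjusted p = 2.9e-05), or to 1.14 without S460. Sln encodes sarcolipin, which binds and uncouples the calcium pump of the sarcoplasmic reticulum. Its level was 14.1, 12.8 and 27.9 CPM in control mice, 142 to 343 CPM in vehicle HSALR mice and 106, 86.7, 150, 86.2 and 96.4 CPM in treated ones, a log2 difference of 2.53 (SE 0.36, edgeR adjusted p = 0.00019) after 3.82 on vehicle. Eda2r, the receptor for ectodysplasin A2, went from 2.98 to 1.97, and the stress-induced transcription factor Atf3 from 3.57 to 2.04, each with a change between the HSALR groups that passed the test (edgeR adjusted p = 0.0008 and 0.0038). Mymk and Mymx, which encode the myoblast fusion proteins myomaker and myomixer, were at 1.88 and 3.59 after 2.70 and 5.53 on vehicle, at 1.11 to 2.85 and 0.378 to 0.669 CPM in treated HSALR mice.

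**Figure D3:**
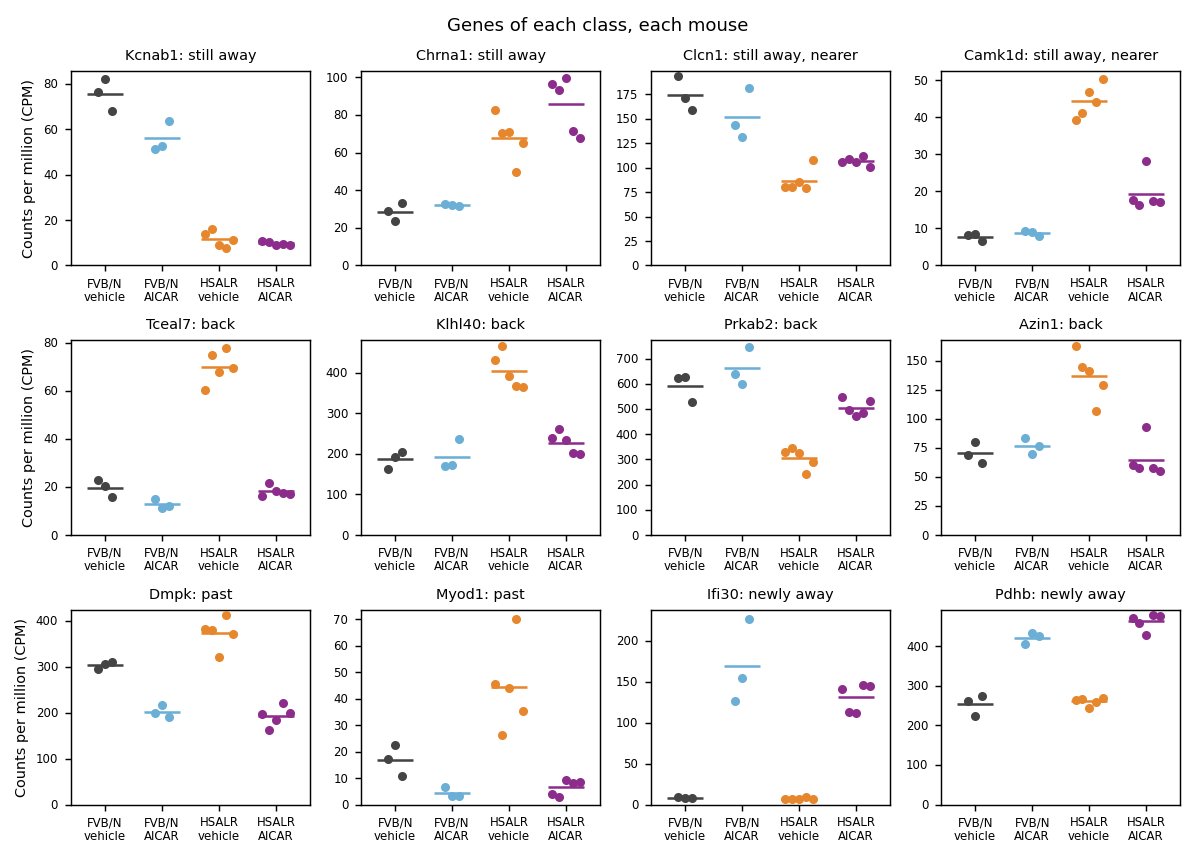
CPM of 12 genes in each mouse (points) of the 4 groups, with group means as lines and linear axes from 0. Kcnab1 stays low and Chrna1 stays high in both HSALR groups, and Clcn1 and Camk1d move part of the way. Tceal7, Klhl40, Prkab2 (which remained lower with 2 of the scalings) and Azin1 lie near the control level, Dmpk and Myod1 lie below it, and Ifi30 and Pdhb differ in treated mice of both genotypes.

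Among genes back near normal, the largest return was that of Tceal7 (chrX:136224041-136226100), a member of the TCEAL family of small nuclear proteins. It had 22.9, 20.3 and 15.9 CPM in control mice, 60.2, 74.9, 68.0, 77.8 and 69.5 CPM in vehicle HSALR mice and 16.1, 21.5, 18.2, 17.6 and 17.2 CPM in treated HSALR mice. All 5 treated mice lay within the control range, and the remaining log2 difference was -0.12 (95% interval -0.39 to 0.15) after 1.83 on vehicle. Scg3, a secretory granule protein, was back with a remaining difference of 0.03 (95% interval -0.32 to 0.37) after 1.54, at 2.15, 2.93 and 2.13 CPM in control mice and 1.99, 2.91, 2.73, 2.34 and 2.28 CPM in treated ones. Dok5, a docking protein of receptor tyrosine kinases, came back from 1.26, but was not placed as back when any single control mouse was left out. Klhl40, which stabilises proteins of the thin filament, returned most of the way, with 164, 193 and 206 CPM in control mice, 366 to 466 CPM on vehicle and 239, 260, 234, 203 and 199 CPM after AICAR. Of its treated mice 3 were above every control mouse, and the interval of the remaining difference, 0.01 to 0.54, did not hold 0. Klhl40 could not be placed without S446 or S450, and its reads cannot be wholly separated from those of Hhatl, which it overlaps in the genome.

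Of the genes that had been lower, Inmt, an amine methyltransferase, was at 17.1, 14.3 and 32 CPM in control mice, 7.19 to 9.69 CPM on vehicle and 21.8, 21.9, 17.6, 27.9 and 23.1 CPM after AICAR. Its treated mice lay within the control range (log2 difference 0.08 after -1.32), although without S450 it was placed past normal. Mfsd4b1, Ybx2 and Slc25a36 came back from -1.32, -0.95 and -0.94, but none of them was placed as back without S445. Slc25a36, a mitochondrial carrier of pyrimidine nucleotides, had 26.7, 23.5 and 33.1 CPM in control mice and 26.3, 26.1, 26.6, 21.6 and 22.7 CPM in treated ones, so the groups overlapped.

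AMPK itself gave a mixed picture. Prkab2, the regulatory beta2 subunit of muscle AMPK, had 624, 628 and 526 CPM in control mice, 243 to 346 CPM in vehicle HSALR mice and 547, 496, 471, 482 and 530 CPM in treated ones. The treated mice lay above all vehicle HSALR mice, and 3 of the 5 lay below every control mouse, with a remaining log2 difference of -0.23 (95% interval -0.46 to -0.00, edgeR adjusted p = 0.10) after -0.95, and with upper-quartile or total-count scaling Prkab2 was still lower. Prkag3, the gamma3 subunit of glycolytic fibres, was newly lower, at 228, 194 and 146 CPM in control mice, 134 to 212 CPM on vehicle and 75.7, 68.8, 62.1, 41.5 and 51.6 CPM in treated HSALR mice, all below the controls (log2 difference -1.66, SE 0.21, edgeR adjusted p = 2.2e-05). Of 17 genes of AMPK and glucose uptake, 3 were higher and 5 lower, with 4 back, 3 still away and 5 newly away, beside 20.8% higher, 16.4% lower, 3.8% back, 17.6% still away and 10.8% newly away over all genes tested. With upper-quartile or total-count scaling 8 were lower, 1 was back and 5 were still away, and 2 were back without S445 or S450, with 1 still away without S450. Only genes that differed on vehicle, 8 in this list, can be back, and over all genes 14.1% of such genes were. Tbc1d1, a substrate of AMPK that restrains glucose transporter traffic, was higher by 2.02 (SE 0.25, edgeR adjusted p = 4.6e-05) and its relative Tbc1d4 lower, at -1.16 (SE 0.21, edgeR adjusted p = 0.00062).

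Many chaperone genes were lower after AICAR than on vehicle. Of 25 heat shock and chaperone genes 16 were higher in vehicle HSALR muscle (15.4% over all genes tested), and 15 were lower in treated than in vehicle HSALR muscle (13% over all genes tested). Against control, 7 remained higher and 2 were lower (20.8% and 16.4% over all genes tested), and the median log2 difference was 0.38 on vehicle and 0.06 after AICAR, beside 0.01 and -0.02 over all genes tested. Cryab, Hspb2, Hspb7, Dnajb4 and Hspe1 were back (3.8% over all genes tested), and 3 genes of the list were back without S445 or without S450. Only genes that differed on vehicle, 16 in this list, can be back, and over all genes 14.1% of such genes were. The change of Hspe1 between the HSALR groups was small, at -0.12, and its class was lost in most fits without a single HSALR mouse. Cryab, the alphaB-crystallin that protects desmin and other filaments, had 710, 687 and 1080 CPM in control mice, 1091 to 1246 CPM on vehicle and 741, 809, 827, 808 and 516 CPM after AICAR, and the treated mice overlapped the control mice (log2 difference -0.16, 95% interval -0.48 to 0.17). It was not placed as back without S445 or S446, or with scaling by total counts. Hspb7, a small heat shock protein of striated muscle, was at 443 to 827 CPM in control mice, S450 being the highest, and 660, 550, 732, 683 and 496 CPM in treated ones, against 1114 to 1355 CPM on vehicle. It was still higher without S450. Reads of Cryab and Hspb2, which overlap in the genome, cannot be wholly separated.

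Other chaperones stayed high. Hspb8, which works with a co-chaperone in the removal of damaged filament proteins, had 430, 445.8 and 433 CPM in control mice, 998 to 1269 CPM on vehicle and 852, 832, 1029, 627 and 695 CPM after AICAR, so it came part of the way (log2 difference 0.89, SE 0.13, edgeR adjusted p = 0.00018, after 1.42). Hspb6 and Hspa2 stayed at 0.76 and 1.07 after 0.81 and 1.15. Hspb1 was still higher by 0.47 (SE 0.17, edgeR adjusted p = 0.042) after 1.98, a call that was lost with upper-quartile and total-count scaling, in fits with fewer groups and without any 1 of S445, S446, S448, S453, S454, S460 and S462, for example S445 (0.30) and S460 (0.36). Hspa1a and Hspa1b, stress-inducible heat shock proteins of a larger kind, could not be placed, because the intervals of their remaining differences of 0.01 and -0.08 were wide (-1.18 to 1.21 and -1.21 to 1.06).

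A few genes of energy metabolism and 1 of the polyamine pathway were also back. Ogdh and Sdha, enzymes of the tricarboxylic acid cycle, had log2 differences of -0.30 and -0.26 on vehicle and of 0.16 and 0.05 after AICAR. Sdha, for example, had 888, 775 and 841 CPM in control mice, 648 to 732 CPM on vehicle and 812, 838, 871, 957 and 831 CPM after AICAR. Azin1, an activator of polyamine synthesis, had 68.9, 79.9 and 61.7 CPM in control mice, 107 to 162 CPM on vehicle and 60.5, 57.9, 93.0, 57.3 and 55.1 CPM after AICAR, and mouse S460 lay above every control mouse and the other 4 below (log2 difference -0.11 after 0.96). Without S460 the change of Azin1 between the HSALR groups was -1.24 in place of -1.08. Azin1 could not be placed without S450, and Ogdh and Sdha were not placed as back without S445. Of 13 genes of polyamine metabolism 4 were higher and 4 lower, with 7 still away. Over all genes tested these shares were 20.8%, 16.4% and 17.6%. The lower ones included Amd1 and Sms. Amd1, which encodes S-adenosylmethionine decarboxylase and cannot be told from its copy Amd2, had a log2 difference of -1.04 (SE 0.09, edgeR adjusted p = 1.1e-06) after -0.96, and Sms, spermine synthase, of -0.88 (SE 0.09, edgeR adjusted p = 4.8e-06) after -0.42.

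The 60 genes past normal included 36 that were now higher and 24 that were now lower. Kcng4, a modifier subunit of potassium channels, went from -0.79 to 1.05 (SE 0.18, edgeR adjusted p = 0.0005), and the transcription factor Mafa from 0.65 to -0.94 (SE 0.15, edgeR adjusted p = 0.00016), and both stayed in this class when any single mouse was left out. Tagap1 (0.93 after -0.31) and Mttp, the microsomal triglyceride transfer protein (-0.67 after 0.40), had also passed normal, but Tagap1 was placed as newly higher without any single control mouse and with total-count scaling, and Mttp as newly lower without S446. For Mafa the control mice had 22.6, 25.5 and 19 CPM and the treated HSALR mice 11.5, 11.0, 13.9, 10.2 and 11.8 CPM, without overlap. Control mice on AICAR had 92.8, 66.1 and 95.6 CPM of Kcng4 and 13.4, 9.50 and 12.6 CPM of Mafa, close to treated HSALR mice.

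Dmpk (chr7:19083646-19093821), the gene whose repeat is expanded in myotonic dystrophy type 1, had 295, 306 and 310 CPM in control mice, 382, 380, 322, 412 and 372 CPM in vehicle HSALR mice and 197, 163, 184, 222 and 199 CPM in treated HSALR mice. The 3 groups did not overlap, and the log2 difference was 0.30 on vehicle and -0.65 after AICAR (SE 0.09, edgeR adjusted p = 5.5e-05). The increase on vehicle was small, and without any single control mouse Dmpk was placed as newly lower instead. In control mice on AICAR it had 200.3, 217 and 189.9 CPM. Six5, its neighbour in the genome, was newly lower at a log2 difference of -1.08 (SE 0.18, edgeR adjusted p = 0.00031). The myogenic regulators Myod1 and Myog were lower by log2 differences of -1.38 (SE 0.40, edgeR adjusted p = 0.012) and -0.59 (SE 0.20, edgeR adjusted p = 0.032) after 1.39 and 0.78 on vehicle. Myod1 had 17.1, 22.7 and 10.9 CPM in control mice, 26.2 to 70.3 CPM on vehicle and 3.83, 2.81, 9.11, 8.14 and 8.60 CPM after AICAR, so that no treated mouse reached a control mouse. Neither kept its class without S445 or without S446.

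Of the splicing factors bound by the repeat or linked to it, Mbnl1 was still lower by a small amount, at a log2 difference of -0.28 (SE 0.08, edgeR adjusted p = 0.015), and Mbnl2 was newly higher at 0.50 (SE 0.16, edgeR adjusted p = 0.021). Mbnl2 had 238, 223 and 254 CPM in control mice and 354, 353, 286, 344 and 350 CPM in treated HSALR mice, S460 being the lowest, and the groups did not overlap. These are gene totals and do not show which exons were included. Neither Mbnl1 nor Mbnl2 was called without S445. Celf3 and Celf4 had larger log2 differences, at 1.54 to 2.27 and 1.85 to 2.42 when single mice were left out. Of 12 genes of disease loci and splicing factors 3 were higher and 5 lower, or 2 and 3 without S445. Over all genes tested 20.8% were higher and 16.4% lower.

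Many genes of oxidative metabolism were newly away. Of 37 genes of respiratory complex I, 32 were higher in treated HSALR muscle and none lower, 25 of them newly, and of 38 genes of complexes III to V 34 were higher and none lower, 28 of them newly. At an unadjusted p under 0.05 edgeR likewise found 0 lower genes in these lists. Over all genes tested 20.8% were higher and 10.8% newly away. The median log2 differences were 0.29 and 0.32 after AICAR against 0.02 and 0.04 on vehicle. Treated HSALR mice had medians of 0.23 to 0.39 over complexes III to V, above the -0.09 to 0.07 of control mice and the -0.08 to 0.13 of vehicle HSALR mice. Single genes differed by small amounts. Atp5g1, which encodes the c subunit of ATP synthase, went from 169, 145 and 159 CPM in control mice to 247, 258, 220, 250 and 259 CPM (log2 difference 0.65, SE 0.06, edgeR adjusted p = 4.1e-06), and Ndufs7, a subunit of complex I, from 240, 228 and 242 CPM to 320, 330, 280, 316 and 321 CPM (0.41, SE 0.07, edgeR adjusted p = 0.00073). With scaling by total counts alone, 25 complex I genes and 26 genes of complexes III to V were higher and none lower, but only 13 and 19 were newly away, and with upper-quartile scaling 19 and 24 were.

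**Figure D4:**
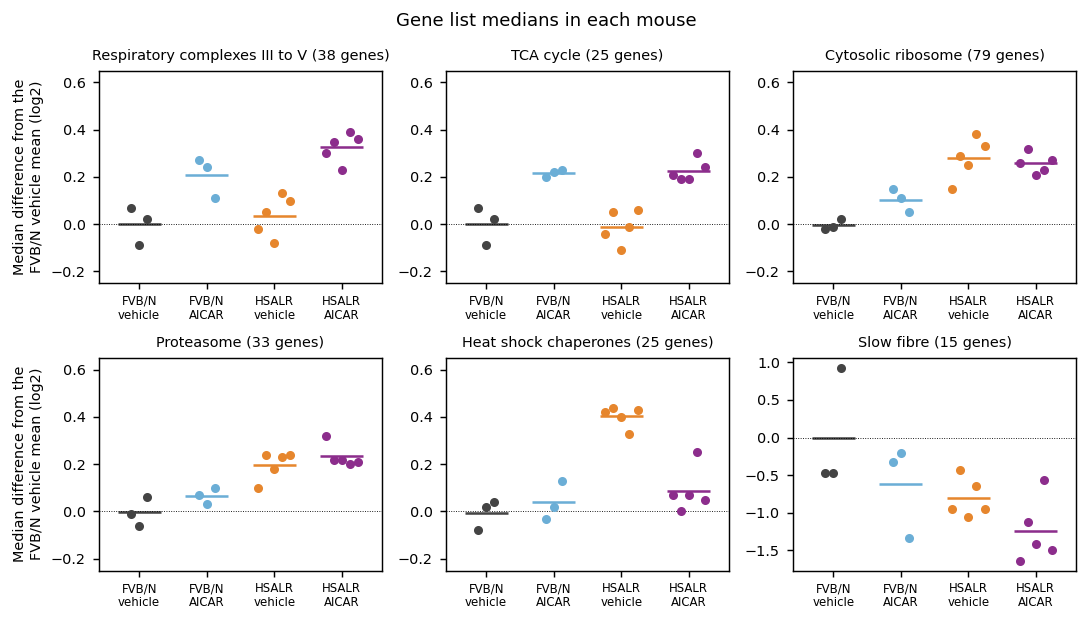
Median log2 difference from the mean of control mice on vehicle over the members of 6 gene lists, for each mouse (points) of the 4 groups, with group means as lines. Respiratory complexes and the tricarboxylic acid cycle are high in treated mice of both genotypes, ribosome and proteasome in both HSALR groups and chaperones in vehicle HSALR mice, and the slow fibre panel, drawn on a wider scale, shows control mouse S450 at 0.93 and the other control mice at -0.47.

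The tricarboxylic acid cycle followed, with 14 of 25 genes higher and 2 lower, 13 of them newly higher, beside 20.8%, 16.4% and 10.8% higher, lower and newly away over all genes tested. Pdhb (chr14:8165991-8173303), a subunit of pyruvate dehydrogenase, had 262, 225 and 274 CPM in control mice, 245 to 268 CPM on vehicle and 472, 460, 429, 480 and 476 CPM after AICAR, well above both (log2 difference 0.87, SE 0.06, edgeR adjusted p = 2.9e-07). Control mice on AICAR had 405, 433 and 427 CPM of Pdhb. The 2 lower genes were not new but still away, having been lower on vehicle as well. They were Me1, the cytosolic malic enzyme that makes NADPH (log2 difference -1.09, SE 0.11, edgeR adjusted p = 4.0e-06), and Idh2, the mitochondrial isocitrate dehydrogenase that also makes NADPH (-1.01, SE 0.19, edgeR adjusted p = 0.00066). Ppargc1a, the coactivator of mitochondrial genes, was newly higher at 0.79 (SE 0.23, edgeR adjusted p = 0.017), with 52.6, 52.4 and 56.7 CPM in control mice and 112, 110, 71.0, 80.6 and 92.4 CPM in treated ones, but the call was lost without S445 or S446. Of 34 genes of fatty acid uptake and oxidation 2 were higher and 6 lower, beside 20.8% and 16.4% over all genes tested. Without S445 1 was higher and 3 lower, and 1 was higher without any 1 of S450, S462 and S463 and with upper-quartile or total-count scaling.

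Glycolysis and glycogen genes were higher in 14 of 31 cases and lower in 1, with 9 newly away and 5 still away. With upper-quartile or total-count scaling 4 were lower and 7 still away, and without S450 1 was still away and without S445 3. The shares over all genes tested were 20.8% higher, 16.4% lower, 10.8% newly away and 17.6% still away. Hk2, the hexokinase that traps glucose in the fibre, had 378, 357 and 326 CPM in control mice, 315 to 389 CPM on vehicle and 988, 822, 642, 811 and 930 CPM after AICAR, without overlap (a 2.37-fold increase, SE of the log2 difference 0.15, edgeR adjusted p = 2.8e-05). Gpi1, the next enzyme of glycolysis, was higher by 0.97 (SE 0.10, edgeR adjusted p = 4.7e-06), Aldoa, the muscle aldolase, by 0.79 (SE 0.10, edgeR adjusted p = 3.9e-05), and Gbe1, the glycogen branching enzyme, by 0.81 (SE 0.16, edgeR adjusted p = 0.0011). In control mice on AICAR the corresponding log2 differences were 1.60 for Hk2, 0.88 for Gpi1 and 0.54 for Aldoa, which passed the test, and 0.15 for Gbe1, which did not.

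**Figure D5:**
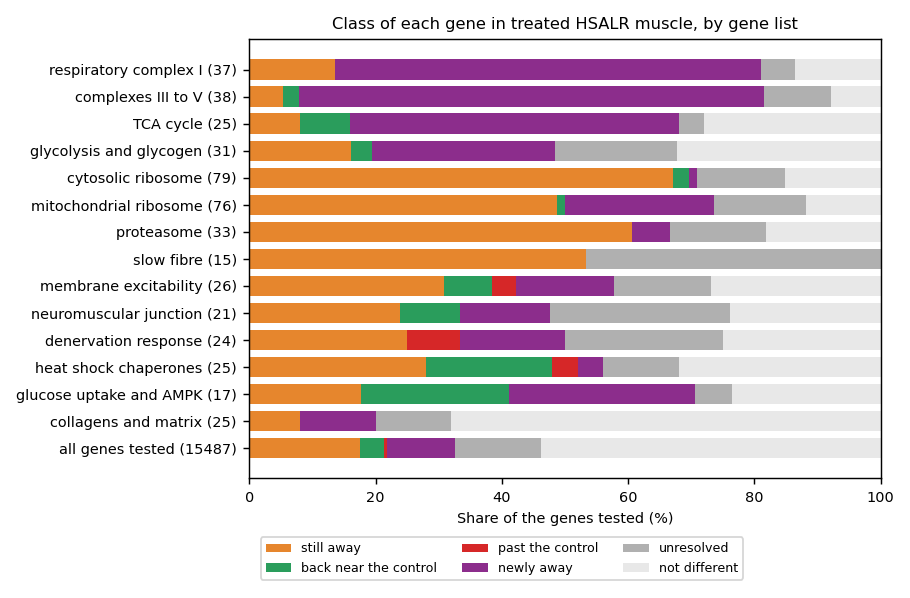
Share of the tested genes of each list that fell in each class in treated HSALR muscle, with the number of genes in brackets and all genes tested as the last bar. With TMM scaling newly away genes fill most of the respiratory complexes, genes still away most of the cytosolic ribosome, proteasome and slow fibre lists, and genes back near normal are 4 of the 17 glucose uptake and AMPK genes and 5 of the 25 chaperones.

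Several genes were newly higher by a large amount in treated muscle. Ifi30 (chr8:70762773-70766663), a lysosomal thiol reductase, had 9.2, 8.12 and 7.50 CPM in control mice, 6.6 to 8.60 CPM on vehicle and 141, 113, 111, 145 and 145 CPM in treated HSALR mice. Control mice on AICAR had 127, 155 and 227 CPM, so all 8 treated mice stood far above all untreated ones (log2 difference 3.99, SE 0.16, edgeR adjusted p = 4.7e-09). Clec4d, a C-type lectin of myeloid cells (4.89), Cspg5, a proteoglycan of the nervous system (4.20), the kinase Mast1 (3.87) and Rprml (3.77) were also among the largest new increases, each below 1 CPM in every control mouse and between 0.569 and 6.88 CPM in treated HSALR mice. Dlk1, a non-canonical Notch ligand of developing muscle, was at 0.982, 1.43 and 0.747 CPM in control mice and 9.72, 6.26, 6.97, 6.28 and 12.7 CPM in treated ones (2.99, SE 0.38, edgeR adjusted p = 7.5e-05).

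Some regulators of transcription were newly away. Hdac4, a class IIa histone deacetylase that represses muscle genes, had 58.5, 49.7 and 54.8 CPM in control mice, 47.3 to 85.4 CPM on vehicle and 135, 117, 106, 112 and 115 CPM after AICAR, above every mouse of both groups (log2 difference 1.11, SE 0.17, edgeR adjusted p = 0.00027). Foxo3, a driver of atrophy genes, was higher by 0.65 (SE 0.12, edgeR adjusted p = 0.00081), while of 21 genes of FOXO signalling and atrophy ligases 3 were higher and 7 lower, beside 20.8% and 16.4% over all genes tested. Only 1 was higher with total-count scaling or without any 1 of S445, S446, S454 and S455, and 4 were lower without S446. The clock repressor Nr1d1 was lower at -1.23 (SE 0.31, edgeR adjusted p = 0.0053), the clock activator Arntl lower at -1.04 (SE 0.33, edgeR adjusted p = 0.021) and the repressor Bhlhe41 higher at 1.14 (SE 0.28, edgeR adjusted p = 0.0075). Of 19 clock genes 4 were higher and 2 lower, while 1 was lower without S450 and 5 were lower without S460, which had the highest Nr1d1 and Bhlhe41 of the treated HSALR mice. Over all genes tested 20.8% were higher and 16.4% lower. Arntl was not called without S450. The hour of tissue collection is not given in the labels.

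A few matrix genes were newly lower. Ccn2, a matricellular growth factor, was at 53.4 CPM or more in every control mouse and 22.6, 17.1, 34.5, 30.9 and 28.2 CPM in treated HSALR mice, without overlap (log2 difference -1.45, SE 0.26, edgeR adjusted p = 0.0005). Col1a1, the main chain of type I collagen, was lower (95% interval of the log2 difference -1.56 to -0.44, edgeR adjusted p = 0.0072), a call lost without S446, which had the highest level, 349 CPM. Of 25 collagen and matrix genes 2 were higher and 5 lower, with 3 newly away, beside 20.8%, 16.4% and 10.8% over all genes tested. Without S446, 3 were higher and 2 lower, 1 was newly away, and the median of the list was 0.04 in place of -0.21. The 7 markers of fibroblasts and tendon summed to 1210 to 1450 CPM in treated HSALR mice and 1520 to 1920 CPM in control mice, with Col1a1 among them, and their part in the result was not tested.

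Slow fibre genes rested on a single control mouse. Of 15 slow fibre genes 12 were lower and 2 higher in treated HSALR muscle, beside 16.4% and 20.8% over all genes tested, with a median log2 difference of -1.42. Myh7, the slow myosin heavy chain, had 1506, 1647 and 4812 CPM in control mice and 601, 939, 811, 1615 and 737 CPM in treated HSALR mice. The high control value was that of S450, and without this mouse 2 slow fibre genes were lower and 2 higher, the median was -0.72 and Myh7 was not called. With any other mouse of these 2 groups left out, 11 or 12 were lower. Mb, the oxygen store myoglobin, was higher at 4626, 2781 and 4980 CPM in control mice against 7217, 7178, 7622, 7577 and 7752 CPM (log2 difference 0.86, SE 0.16, edgeR adjusted p = 0.0012).

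The same mouse carried the largest decreases by the test. The epidermal or epithelial genes Dsg1a, Krt15, Krt77, Krt5, Krt14, Calm4, Trim29 and Spink5 were placed as newly lower, but each was high in S450 alone among the control mice. Krt5, a keratin of the basal epidermis, was at 0, 0.128 and 23.4 CPM in control mice and at 0 in all treated HSALR mice but S462, which had 0.0651 CPM, where 3 counts are 0.0371 to 0.0459 CPM. None of these 8 genes was called without S450. Without it, the newly away genes with the largest decreases were Kcnf1 (-3.37), Rmi2 (-2.67), Rtkn2 (-2.43), Prkag3 (-1.81) and Ccdc146 (-1.77), and those with the largest increases were Clec4d (4.85), Rdh8 (4.84), Mt2 (4.28), Cspg5 (4.18) and Ttc25 (4.18). Mt2, a metallothionein, had 2.66, 2.68 and 8.83 CPM in control mice and 71.6, 57.0, 84.1, 21.4 and 26.2 CPM in treated HSALR mice.

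The sequence before the start of genes was read for 3 short motifs in the RefSeq promoter table of GRCm38.p6, which holds 250 bases before and 50 after each start and matched 12103 of the 15487 genes tested. The motifs were TGACGTCA (the full cyclic AMP response element), CAGCTG (an E-box that myogenic factors can bind) and TATAAA, searched on both strands. TGACGTCA was found in 4.48% of genes back near normal, 3.58% of genes still away, 2.08% of genes past normal and 2.76% of newly away genes, beside 3.25% of all genes tested. CAGCTG was found in 16.2%, 19.2%, 16.7% and 19.3% of these classes, beside 18.6%, and TATAAA in 9.17%, 11.2%, 2.08% and 9.81%, beside 9.79%. The class past normal had 48 matched genes, so a single gene is 2.08% of it. These shares are a description without a test, and a match is no evidence of binding.

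The 250 bases before the start are shown for Chrna1 and Musk, which were still higher, Klhl40, which was back, and Slc25a36, which was back and holds a full cyclic AMP response element, each from 5′ to 3′ on the strand of its gene with the motif in capitals. In Chrna1 (chr2:73580339-73580588, minus strand) the E-boxes begin 92 and 44 bases before the start, in Musk (chr4:58285712-58285961, plus strand) 68 bases, and in Klhl40 (chr9:121777357-121777606, plus strand) 10 bases before it. In Slc25a36 (chr9:97111042-97111291, minus strand) TGACGTCA begins 161 bases before the start.
Chrna1: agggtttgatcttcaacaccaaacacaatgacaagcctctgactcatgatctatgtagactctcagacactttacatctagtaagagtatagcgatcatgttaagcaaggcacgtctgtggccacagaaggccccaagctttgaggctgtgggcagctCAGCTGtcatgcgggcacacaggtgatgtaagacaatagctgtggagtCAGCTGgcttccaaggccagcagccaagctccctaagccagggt
Musk: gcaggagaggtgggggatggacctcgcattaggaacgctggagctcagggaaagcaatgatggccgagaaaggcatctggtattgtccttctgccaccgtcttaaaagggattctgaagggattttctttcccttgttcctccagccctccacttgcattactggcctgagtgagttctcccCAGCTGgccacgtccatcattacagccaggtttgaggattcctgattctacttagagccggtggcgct
Klhl40: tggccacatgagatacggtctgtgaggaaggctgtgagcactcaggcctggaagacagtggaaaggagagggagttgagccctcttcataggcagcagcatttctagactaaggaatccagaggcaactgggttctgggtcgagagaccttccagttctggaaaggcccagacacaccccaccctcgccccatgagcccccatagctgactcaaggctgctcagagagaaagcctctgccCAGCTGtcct
Slc25a36: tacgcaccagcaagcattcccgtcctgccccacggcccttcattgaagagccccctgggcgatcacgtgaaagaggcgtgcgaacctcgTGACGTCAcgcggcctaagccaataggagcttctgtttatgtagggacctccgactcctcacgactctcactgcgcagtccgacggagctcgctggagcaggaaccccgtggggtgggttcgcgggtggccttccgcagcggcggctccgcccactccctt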

How the data were processed

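RNA from gastrocnemius muscle of 16 mice was sequenced with a stranded poly(A) protocol. According to the study's methods, the authors aligned single-end reads with STAR 2.5.2a to mm10, keeping a single location for reads that mapped equally well to several, and counted reads starting in exons of RefSeq genes with QuasR. Whether counting used strand is not given in the sources used here. The deposited values are raw counts of 24454 genes, without normalisation. Symbols and coordinates came from RefSeq for GRCm38.p6, the assembly of mm10, which matched 24374 of them.

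Counts were analysed with edgeR 4.0.16 in R 4.3.3, using filterByExpr, TMM factors, 1 mean for each of the 4 groups over all 16 libraries, quasi-likelihood tests and Benjamini-Hochberg adjustment over 15487 genes at 0.05. Intervals are 95% intervals of the same fit, and near normal meant no difference from control by the test and an interval within 1.5-fold. The script was tested on simulated data. Limma 3.58.1 with voom, DESeq2 1.42.0, other scalings, filters and thresholds, and leaving out each mouse were alternatives. Gene list counts under other scalings or without single mice, and the newly away genes without S450, were added after seeing the data.

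Each mouse counted as a separate sample, and p-values measure the spread between these mice. Genes were named by largest difference in each class (mean count of at least 50, no predicted genes, and for the overall comparison no overlap), plus members of the lists counted, and some genes that met this rule are not reported here. Rdh8, Rtkn2, Rmi2 and Ttc25 were named from the fit without S450, after its values were seen. The comparison and the gene lists were chosen with earlier results of these data known. Splicing was not analysed here.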

Additional observations from a re-analysis of the deposited data

Results flagged for a closer look

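A value was singled out where the highest or lowest mouse of a group of 5 stood apart from the others by more than the critical value of Dixon's test at 95%, which chance alone does for about 1 in 20 groups. Of 117 groups examined, 19 were singled out, and 9 of these were mouse S460 among treated HSALR mice.

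Mouse S460 had the highest Krt8 (39.04 CPM), Clca4a (5.136 CPM), Camk1d (28.18 CPM), Azin1 (93.03 CPM), Nr1d1 (119.9 CPM) and Bhlhe41 (150.1 CPM) of its group. It had the lowest Hspe1 (36.58 CPM), Ndufs7 (280.4 CPM) and Mbnl2 (286.3 CPM). For Krt8 the other treated HSALR mice lay between 2.69 and 4.29 CPM, for Camk1d between 16.2 and 17.6 CPM and for Azin1 between 55.1 and 60.5 CPM.

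Mouse S454 had the highest Musk (85.33 CPM, the others 56.8 to 62.1 CPM) and the highest median of the proteasome list (0.32 on the log2 scale, the others 0.20 to 0.22). Mouse S462 had the lowest Dok5 (1.888 CPM) and the highest median of the chaperone list (0.25, the others 0.00 to 0.07), and mouse S463 the lowest Cryab (516.1 CPM, the others 741 to 827 CPM). Krt15 (0.01371 CPM), Krt77 (0.05486 CPM) and Calm4 (0.02743 CPM) in S454 and Krt5 (0.06509 CPM) in S462 stood apart only because the other treated HSALR mice were at 0. Among vehicle HSALR mice, S453 had the greatest distance from normal muscle (0.472, the others 0.417 to 0.431).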

How the results depend on the processing

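With an adjusted p under 0.01, 3481 genes differed from control (1315 lower), 244 were back near normal, 1453 still away, 12 past normal and 932 newly away. A tighter limit on the interval left 375 genes back. Leaving out 1 mouse at a time gave 382 to 620 genes back near normal, the lowest without S445, and 17 to 80 past normal, with 20, 27 and 17 without S445, S446 and S450. The calls ranged from 4389 to 5969, with 1855 to 2805 still away and 1286 to 1799 newly away. Without S450, 367 of the 589 genes back, 1931 of those still away, 14 of those past and 1326 of those newly away kept their class. DESeq2 called 6132 genes and limma 5690. The difference between both HSALR groups in their distance from normal muscle was 0.025 with a pseudocount of 5 (exact permutation p = 0.016), 0.038 for genes of at least 5 CPM (exact permutation p = 0.0079) and 0.026 for the median absolute difference (exact permutation p = 0.032), and ranged from 0.002 to 0.039 when single mice were left out. Without vehicle HSALR mouse S453 it was 0.033 (exact permutation p = 0.016). The cause of these changes was not tested. Among named genes, 3361 comparisons with a mouse left out kept the call and 191 lost it, 2494 under the other alternatives kept it and 96 lost it, and none changed direction. Such a call is that of a single contrast and not the class of the gene. The contrast was treated against vehicle HSALR for genes that no longer differed from control, and treated HSALR against control for the others. A gene can therefore keep its call and lose its class. Library-size scaling moved the median of all genes from -0.015 to -0.077. No paired analysis was possible because mice of different groups share no number or other identifier. Genes of a few counts, such as the epidermal genes in treated HSALR mice, are limited by depth, and with 3 control mice every class depends on each of them.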
